A study of Arabidopsis thaliana with 12 samples.

Results

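Wild-type flowers were compared with wild-type leaves of Arabidopsis thaliana, using 6 of the 12 arrays of the series, chosen by their tissue and genotype labels alone. The series measured transcript levels with Affymetrix ATH1 arrays, on which a set of short probes stands for each transcript. All plants were Landsberg erecta (Ler-0). The 3 flower samples were labelled growth stage 6.90 and the 3 leaf samples growth stage 3.90, both without the lug-3 allele, and 3 lug-3 flower and 3 lug-3 leaf samples make up the remainder. Each sample was a pool of 20 plants, seeds had been kept for 4 days at 4 °C, and plants grew at 20 °C in constant conditions. Tissue and growth stage cannot be told apart, because each tissue was taken at 1 stage. The labels do not say that the pools were grown separately, so the spread behind each p-value may be technical only. The extraction protocol speaks of rosette leaves for all 12 samples, while the tissue labels of the flower arrays say flowers.

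A mature rosette leaf is built largely of mesophyll cells whose plastids carry out photosynthesis, and in the mustard family it also stores glucosinolates, sulphur-rich defence compounds. An open flower holds sepals and petals around anthers and a carpel. The anthers form pollen, fed by an inner cell layer called the tapetum, and the carpel encloses ovules that become seeds. Flower primordia still divide and expand, which needs new chromosomes, spindles and cell walls.

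The tissue labels were checked against defining transcripts, in the units of the deposited table, a linear probe set signal scaled by the authors to the same mean on every array. The signal of ATA27, a tapetum beta-glucosidase, was 895, 928 and 1347 on flower arrays 1, 2 and 3 and 3.80, 1.15 and 1.73 on leaf arrays 1, 2 and 3. The signal of RCA, rubisco activase, was 2447, 2363 and 2769 on the flower arrays and 5832, 6201 and 4881 on the leaf arrays. The anther marker was therefore near the bottom of the scale in all leaf samples, and the photosynthesis marker was present in both tissues at different levels. Values below are always given in this order of arrays.

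The 100 brightest probe sets held 8.90 ± 0.365% (SD, n = 3) of all signal in flowers and 12.9 ± 0.758% in leaves. Signal above 16.4, the filter on low values used below, was reached by 72.3 ± 0.911% of the probe sets in flowers and 67.8 ± 0.994% in leaves. Both differences gave an exact two-sided permutation p = 0.1, the smallest that 3 arrays against 3 allow. The ratio of 3' to 5' GAPDH control signal, a measure of RNA quality, was 1.82 ± 0.227 in flowers and 2.66 ± 0.877 in leaves (exact permutation p = 0.3). Its values on the leaf arrays were 1.71, 2.83 and 3.44.

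limma tested 17877 probe sets and called 10582 of them (59.2%), the threshold being 0.05 after Benjamini-Hochberg adjustment. Of these, 5897 (33.0% of those tested) were higher and 4685 (26.2%) lower in flowers. All 3 flower arrays lay above all 3 leaf arrays for 35.7% of the tested probe sets and below them for 28.8%. Changes are differences of log2(signal + 8) between flowers and leaves, which understate the change of dim probe sets, and their median over all tested probe sets was 0.06. The larger changes ran mostly towards flowers: 1236 probe sets (6.91%) were higher by more than 4-fold against 583 (3.26%) lower, and 96 against 8 passed 32-fold. The balance of all calls depended on the scaling, with 5002 (28.0%) higher and 6106 (34.2%) lower after quantile normalization, which moved the median change by -0.18. Of the 22746 probe sets that are not controls, 1216 had a signal above the filter on every flower array and on no leaf array, and 367 the reverse. In a whole organ, fewer cells of a type and less RNA per cell cannot be told apart.

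Genes were then read in lists of shared function or family, of which 75 had at least 3 tested members. These lists held 650 different tested genes, of which 246 were higher, 204 lower and 200 not called. Of the 9902 tested genes only 1350 carried a symbol, so a family list shows its named members and may miss others. The lists whose calls ran most to leaves included those of the photosynthetic machinery, thioredoxins, sulphur metabolism and defence. Those that ran most to flowers included tubulin, cell cycle, endoglucanase, RALF peptide, actin, pollen and xyloglucan endotransglucosylase genes. Some of these lists, among them those of thioredoxins, sulphur metabolism and tubulin, were added after values were seen. So were the lists of chloroplast-encoded genes, of nuclear photosystem genes and of nuclear NDH genes. A list was not tested as such, and its counts stand against the 33.0% and 26.2% of all tested probe sets.

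**Figure D1:**
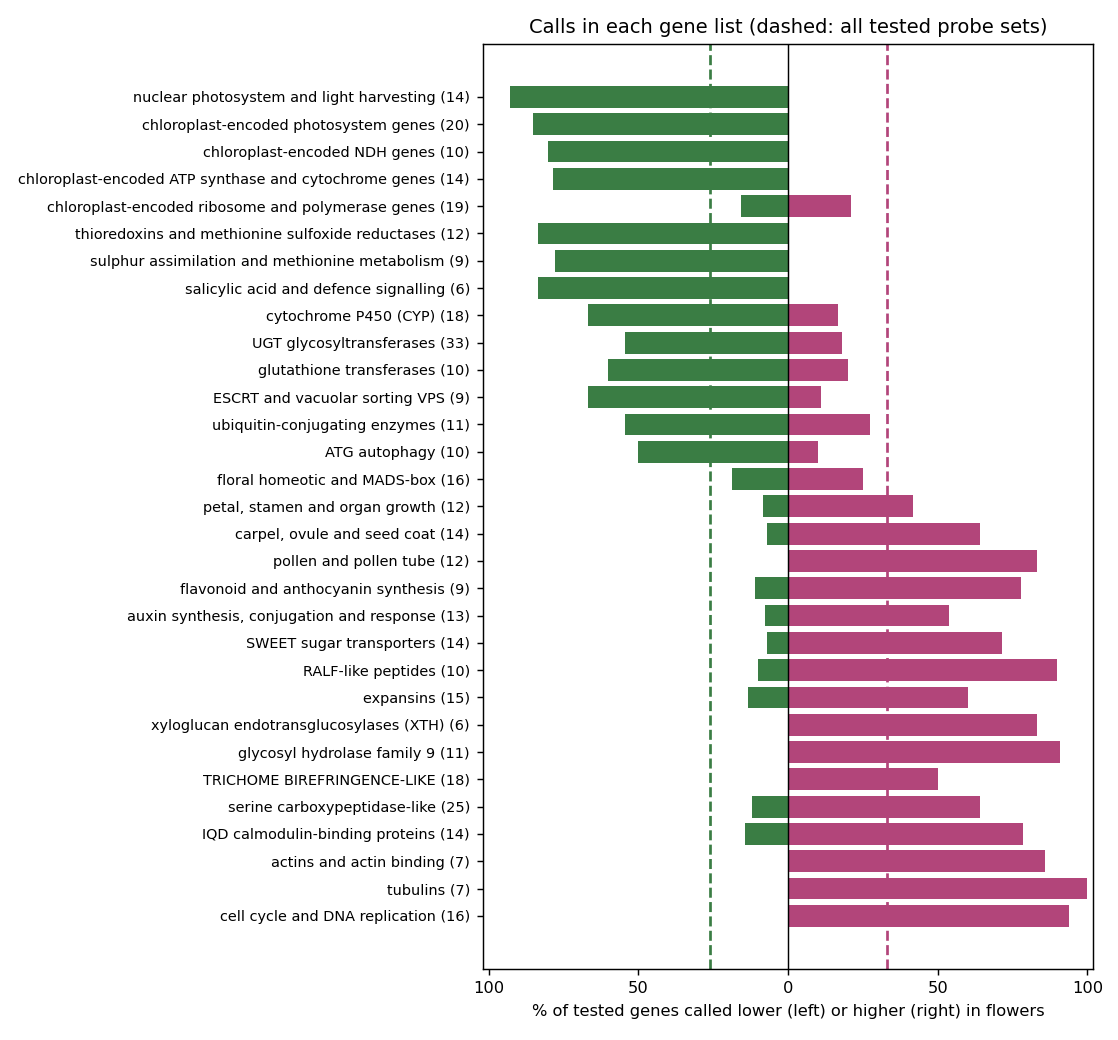
Percentage of the tested genes of each list (number in parentheses) that were called lower (green, to the left) or higher (magenta, to the right) in wild-type flowers than in wild-type leaves. Dashed lines mark 26.2% and 33.0%, the shares of all tested probe sets; the photosystem lists lie far to the left of the first and the tubulin list reaches 100% on the right.

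The largest increases in flowers belonged to genes with almost no signal in leaves. GILT, named after a mammalian lysosomal thiol reductase, had signals of 2545, 2256 and 2239 in flowers and 9.68, 9.27 and 8.68 in leaves (log2 change 7.09, SE 0.122, adjusted p = 1.27e-11). ATA27 differed by 6.69 on the log2 scale (SE 0.183). The signal of GH9B13, an endoglucanase of glycosyl hydrolase family 9, was 661, 699 and 709 in flowers and 2.85, 4.03 and 1.87 in leaves (log2 change 6.00, SE 0.203). For these 3 genes the leaf arrays all lay below the filter, and the groups were far apart. CYP71B31, a cytochrome P450, was less even among flowers, with 998, 964 and 526 against 10.8, 1.60 and 1.98 (6.05, SE 0.335). Loci without a symbol made up much of the top: AT5G45880 (6.72), AT3G28750 (6.68), AT1G72290 (6.50), AT3G07820 (6.49) and AT5G38760 (6.44). They were followed by AT1G66850 (6.40), AT3G49270 (6.35), AT1G68875 (6.23), AT3G01240 (6.11), AT5G33370 (6.08) and AT5G47350 (5.96). With GILT, ATA27, CYP71B31 and GH9B13 these are the 15 largest increases in the set. Probe sets with several genes or none were not ranked.

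Among the next genes with a symbol, several encode secreted or membrane proteins. THI2.1, a small antimicrobial thionin induced by jasmonate, gave 1110, 1208 and 1533 in flowers and 9.08, 17.8 and 11.9 in leaves (log2 change 5.96). SBT4.13, a subtilisin-like protease, changed by 5.94, ARPN, a plantacyanin or blue copper protein, by 5.39, and OCT1, a carnitine transporter, by 5.09. WSD1, a wax ester synthase, changed by 4.91, with 665, 713 and 589 in flowers and 13.3, 24.6 and 7.44 in leaves. SHN3, a regulator of wax and cutin synthesis, changed by 3.58, so that both of these cuticle genes were much higher in flowers. The third gene of that list, RST1, had a small decrease (-0.33), which lost its call when some single arrays were left out (adjusted p up to 0.0911).

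In the same set of ranked probe sets, the largest decreases in flowers were led by BCAT4, the aminotransferase that starts the elongation of methionine for glucosinolates. Its signal was 79.8, 79.7 and 54.4 in flowers and 2576, 3639 and 2890 in leaves (log2 change -5.27, SE 0.170, adjusted p = 4.25e-10). ECS1 gave 64.8, 48.3 and 65.9 in flowers and 1671, 1908 and 1635 in leaves (-4.70). CHI, annotated as a chitinase at the locus AT2G43570, gave 21.3, 16.4 and 18.2 against 1008, 552 and 464 (-4.60). GLR2.7, a glutamate receptor-like channel, gave 2.81, 0.787 and 1.09 against 178, 177 and 131 (-4.14). For each of them every leaf array lay above every flower array, which was a condition for being named among the largest changes. All flower arrays of GLR2.7 were under the filter. The remaining loci of the 15 largest decreases were AT4G01390 (-4.92), AT1G30250 (-4.89), AT1G35710 (-4.85), AT5G59540 (-4.60), AT1G64360 (-4.56), AT4G34950 (-4.35) and AT1G65490 (-4.25). Below them were AT1G49500 (-4.11), AT3G19030 (-4.10), AT5G24210 (-4.09) and AT1G13470 (-4.05). Over all tested probe sets 42 were called lower by more than 16-fold, so decreases of this size also occurred in probe sets not named here.

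**Figure D2:**
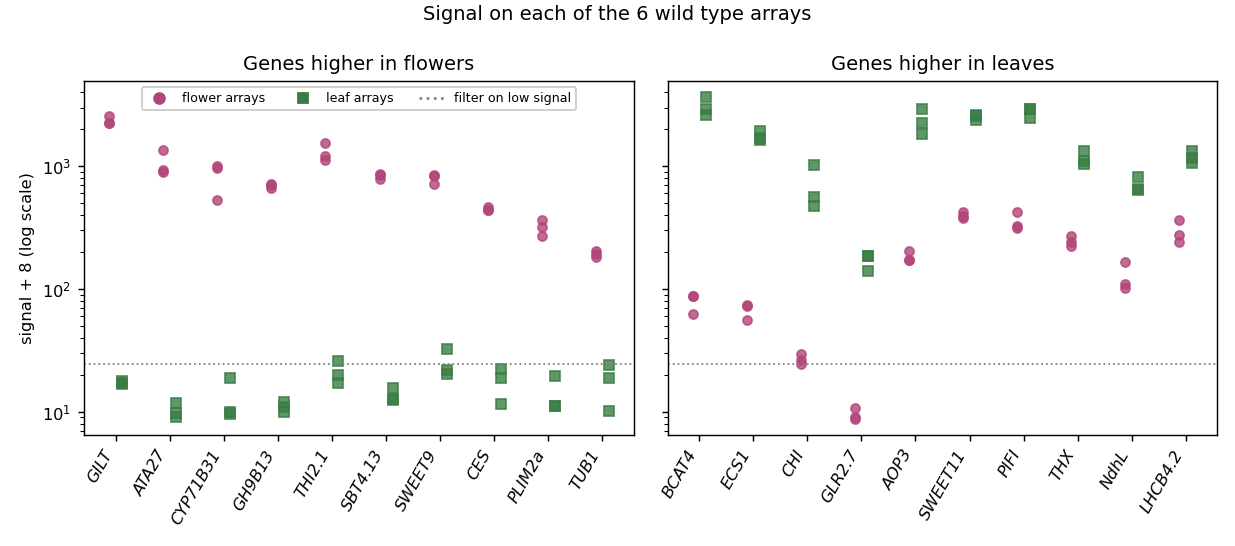
Signal plus 8, on a log scale, of 10 genes higher in flowers (left panel) and 10 higher in leaves (right panel), with 1 circle per flower array and 1 square per leaf array; the dotted line is the filter on low signal. The flower and leaf arrays do not overlap for any of these genes, most of which were named on condition of separate groups. Most leaf signals of the flower genes lie below the filter.

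The photosynthetic apparatus was lower in flowers whether its genes lie in the nucleus or in the chloroplast. Of 14 nuclear photosystem, light-harvesting and electron transport genes, 13 were lower, none was higher, and the median change was -1.16. LHCB4.2, a light-harvesting protein of photosystem II, gave 235, 269 and 359 in flowers and 1052, 1327 and 1151 in leaves (log2 change -2.02, SE 0.190). AT1G52220 (-1.57), PSAN of photosystem I (-1.52), ATPC1 of the chloroplast ATP synthase (-1.35) and PSBW of photosystem II (-1.19) were also lower. Of 5 Calvin cycle and photorespiration genes, 4 were lower. HPR, the photorespiratory hydroxypyruvate reductase, changed by -2.15, PRK, phosphoribulokinase, by -1.72, SBPASE, sedoheptulose bisphosphatase, by -1.38 and RCA by -1.15. TPI, a triose phosphate isomerase, had a change of -0.17 and was not called. Pigment synthesis was different: of 9 chlorophyll and carotenoid genes, 2 were lower (LYC, -1.06, and CHLM, -0.68), 1 was higher (CHLI2, 0.57) and 6 were not called.

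Genes encoded in the chloroplast were grouped by function after values were seen, so the contrast between these groups is a description. Of 20 photosystem genes, 17 were lower and none higher (median -1.17), and of 10 genes of the NDH complex, which returns electrons from the stroma to the plastoquinone pool, 8 were lower (median -1.19). Of 14 ATP synthase and cytochrome genes, 11 were lower (median -0.77). Of 19 genes for plastid ribosomal proteins and the plastid RNA polymerase only 3 were lower, 4 were higher and 12 were not called, and the median was -0.12. The balance within this last list turned to 2 higher and 3 lower after median centring. After quantile normalization 13 photosystem, 9 NDH, 8 ATP synthase and cytochrome, and 2 ribosome and polymerase genes were lower.

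psbA, the D1 protein of photosystem II, gave 356, 394 and 475 in flowers and 2465, 1559 and 1500 in leaves (log2 change -2.12). psbF changed by -1.87, psbE by -1.62 and psbL by -1.77, all of them small subunits of photosystem II. ndhJ gave 126, 215 and 303 against 1155, 1366 and 1191 (-2.56), and rbcL, the large subunit of rubisco, 191, 292 and 361 against 879, 630 and 799 (-1.46). These genes had no overlap between the tissues. On the other side rpl22, a ribosomal protein gene, gave 506, 775 and 744 in flowers and 334, 290 and 304 in leaves (1.08, adjusted p = 0.000105). rpl14 (0.93), rpoB of the polymerase (0.70) and rps3 (0.50) were also called higher, and each call depended on 1 array or more, with an adjusted p of up to 0.0697 when those were left out. psaA, a core subunit of photosystem I, was not called (0.12), and its leaf signals of 2216, 601 and 314 spanned the flower signals of 755, 709 and 1018.

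Among called probe sets with 1 annotated gene, the brightest were chloroplast genes in both tissues, with the nuclear gene RCA among them in leaves. Probe sets with several genes or none were not ranked. In this ranking atpE, atpB, psbM, atpA and petB led the flower arrays, and atpB, psbM, atpE, RCA and petB the leaf arrays. atpB, the ATP synthase beta subunit, gave 3780, 3667 and 4012 in flowers and 6602, 6318 and 5417 in leaves (log2 change -0.67). The changes of atpE (-0.52), psbM (-0.73), atpA (-0.71) and petB (-0.76) were of like size, and after quantile normalization none of these 5 was called, with values of 0.15 for atpE and 0.00 for atpA. Chloroplast transcripts were also uneven among flower samples. On flower array 1, 62 of the 69 chloroplast-encoded genes had their lowest signal of the 3, against 34.6% of all tested probe sets, and on flower array 3, 54 had their highest. The part of this unevenness in the tissue difference was not tested beyond leaving out each array.

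**Figure D3:**
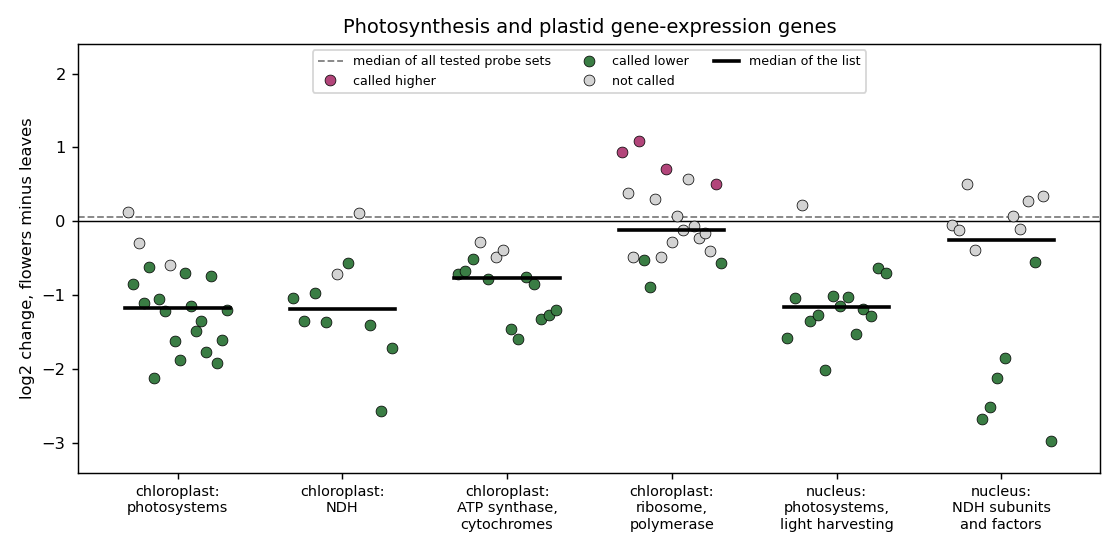
Log2 change between wild-type flowers and leaves of each tested gene (points, coloured by call) in 6 groups of photosynthesis and plastid genes, with the median of each group as a bar and the median of all tested probe sets as a dashed line. The ribosome and polymerase group, median -0.12, lies above the photosystem group, median -1.17, and the nuclear NDH group splits into members near 0 and members below -1.5. All 6 groups were formed after values were seen.

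The nuclear genes of the NDH complex fell into separate ranges. The subunits NdhL (-2.52), NdhN (-2.11) and NdhS (-1.85), the assembly factor CRR42 (-2.67) and PIFI (-2.97), named for its effect on chlorophyll fluorescence after illumination, were lower in flowers. PIFI gave 319, 307 and 415 in flowers and 2460, 2922 and 2887 in leaves. Of the other 9 tested members, mostly RNA editing factors of organelles of the CRR and OTP series, 8 were not called and OTP84 was lower by a small amount (-0.55). In all, 6 of 14 were lower and none higher.

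Thioredoxins, small proteins that switch enzymes by reducing disulfides, were mostly lower in flowers, as were their partners. In a list added after values were seen, 10 of 12 genes were lower and none higher, with a median of -1.27. In the earlier list of the thioredoxin and GILT family 7 of 11 genes were lower and 2 higher, with GILT (7.09) the highest. THX, the x-type plastid thioredoxin, gave 231, 218 and 260 in flowers and 1098, 1322 and 1042 in leaves (log2 change -2.25). TRXF2, the f-type that activates the Calvin cycle, changed by -1.31, the m-type ATHM2 by -1.23 and NTRC, a thioredoxin fused to its reductase, by -1.08. CcdA, a thylakoid thiol transporter, changed by -2.07 and SRX, sulfiredoxin, by -1.78. Of the y-type thioredoxins, ty2 was called lower (-0.43, adjusted p up to 0.154 without some arrays) and TY1 was not called (0.33).

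Sulphur and methionine metabolism and the glucosinolate genes it feeds were mostly lower in flowers. Of 9 sulphur and methionine genes, 7 were lower and none higher, with a median of -1.77. Beside BCAT4, SIR, sulfite reductase, gave 231, 228 and 241 in flowers and 820, 877 and 710 in leaves (log2 change -1.74). APS3, an ATP sulfurylase, changed by -1.80, SAL2, a phosphatase of sulphur-activated nucleotides, by -3.56, its relative HL by -1.77 and ARD4, of the methionine salvage family, by -2.17. APS4, a second ATP sulfurylase, was not called (0.28). Within the 7 glucosinolate genes, AOP3, which shapes the side chain, gave 165, 164 and 195 against 1831, 2919 and 2249 (-3.66). UGT74B1, which adds glucose to the core, changed by -1.81 and GSTU20 by -2.28. AOP1, a relative of AOP3, was higher in flowers (1.37), and the transporters GTR1 (0.16) and GTR2 (0.21), which move glucosinolates between organs, were not called.

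The short list of salicylic acid and defence signalling genes ran towards leaves and was uneven among the leaf samples. The antimicrobial THI2.1, above, ran the other way. Of 6 genes of salicylic acid and defence signalling, 5 were lower in flowers and EFR, the receptor for a bacterial elongation factor, was not called (0.34). ECS1 (-4.70), above, had the largest decrease of the list. GRX480, a salicylic acid-induced glutaredoxin, gave 45.5, 34.3 and 40.2 in flowers and 211, 145 and 118 in leaves (log2 change -1.76). SAG101, a partner of the defence protein EDS1, changed by -1.71 and BIK1, a kinase that acts with immune receptors, by -0.84. WRKY53, a senescence and defence factor, gave 35.8, 46.6 and 36.9 against 445, 117 and 95.7 (-1.92). Leaf array 1 was the highest of the 3 for 5 of these 6 genes and for 5 of 6 WRKY genes (3 lower in flowers, none higher), against 33.3% of all tested probe sets. WRKY53 is itself a WRKY gene, so these counts may share it. Leaf array 1 also gave 2233 for STZ, a stress and touch-responsive zinc finger gene, against 175 and 668 on the other leaf arrays. The flower signals of STZ were 53.1 to 81.6 (-3.17). Leaf array 1 had the lowest GAPDH ratio of the leaf samples, 1.71. The part of this sample in the defence difference was not tested further. Without it all 5 calls and that of STZ held.

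Among the members named here, enzymes that modify small molecules ran towards leaves in 3 families, each with members that went the other way. Of 18 cytochrome P450 genes, mostly of the CYP71B group, 12 were lower and 3 higher in flowers (median -1.18). CYP71B5 gave 6.09, 3.51 and 0.595 in flowers and 134, 85.9 and 113 in leaves (-3.39), CYP71B23 changed by -2.96, CYP71B36 by -2.46 and CYP71B6 by -1.93, while CYP71B31 had the third largest increase among genes with a symbol. Of 33 UGT glycosyltransferases, 18 were lower and 6 higher. UGT87A2 (-2.06) and UGT72E1 (-2.40) were on the leaf side, UGT85A3 (3.44) and UGT72E3 (1.64) on the flower side. Of 10 glutathione transferases, 6 were lower, among them GSTU27 (-1.60) and GSTL3 (-1.22), and GSTU26 was higher (2.33). Of 7 glutamate receptor-like channels, 4 were lower, led by GLR2.7, GLR2.8 (-2.50) and GLR1.4 (-1.62), and none was higher.

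The tested genes of the male organs were mostly higher in flowers. Of 12 pollen and pollen tube genes tested, 10 were higher and none lower (median 2.18), and ANX1 and CHX21 did not pass the filter. Genes with almost no leaf signal passed the filter only through their flower signal, so they could hardly be called lower. This limits the counts of every list with such genes, among them the tapetum, carpel, cell cycle, tubulin, endoglucanase, carboxypeptidase and RALF lists below. In reverse, genes with almost no flower signal, such as GLR2.7 and CYP71B5 above, could hardly be called higher. RALFL25, a RALF-like signalling peptide, gave 309, 241 and 150 in flowers and 1.06, 0.337 and 0.364 in leaves (log2 change 4.76). PLIM2a, an actin-bundling LIM protein of pollen, gave 353, 313 and 261 against 3.22, 3.16 and 11.5 (4.55). ANX2, a receptor kinase that keeps the pollen tube intact, gave 86.0, 104 and 64.7 against 0.893, 0.480 and 0.727 (3.39). Flower array 3 was the lowest for all 3 of these genes and for 9 of the 12 in the list, against 35.2% of all tested probe sets. MGH3, the histone H3 of the male gamete, changed by 2.42. SETH1 (0.28) and SETH2 (0.02), needed for pollen germination, were not called. Of 9 genes in the list of tapetum and pollen coat only 5 passed the filter, and 4 of these were higher. They were ATA27, the pectate lyase AT59 (4.12), the glucose transporter SWEET8 (3.49) and EMS1 (2.87), the receptor kinase that specifies the tapetum.

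Of 14 carpel, ovule and seed coat genes, 9 were higher and 1 lower, and NGA3, EC1.2 and EC1.5 did not pass the filter. BAN, anthocyanidin reductase of the young seed coat, gave 357, 295 and 233 in flowers and 1.60, 2.84 and 1.91 in leaves (log2 change 4.88). CES, a bHLH factor of the transmitting tract, gave 455, 434 and 427 against 3.61, 14.4 and 11.0 (4.71). ALC, which shapes the opening margin of the fruit, changed by 2.93, HLL, an ovule growth gene, by 2.92 and VDD, a factor of the embryo sac, by 2.56. The embryo sac factors AGL80 (-0.39) and AGL61 (-0.17) were not called, and NGA4 was lower (-0.80). Among 12 genes of petal, stamen and organ growth, 5 were higher. BPEp, a bHLH factor that limits petal size, changed by 4.14, TCP15 by 1.74, PTL, a factor of perianth form, by 1.32 and SPT by 0.82, while CYP78A9 was lower (-1.11).

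MADS-box genes, the family of the floral organ identity factors, were mostly below the filter as far as they are named here, which leaves out most organ identity genes. Of the 41 named 25 did not pass the filter, and of the 16 tested 4 were higher and 3 lower, or 3 and 10 after quantile normalization. AGL104 and AGL66, partners in pollen maturation, changed by 1.66 and 1.15, AGL18 by 1.08, and AGL16 by -0.85. AGL104 gave 26.1, 21.0 and 22.3 in flowers and stayed at 2.52 or less in leaves. AGAMOUS, APETALA1, APETALA3 and PISTILLATA were not analysed here. Of 5 genes of flowering time and the clock, SNZ, an AP2-like repressor of flowering, was lower (1.84, 1.02 and 10.8 against 46.4, 67.5 and 44.6, change -2.34), as was FD (-1.13), and GI was not called (0.02).

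In the list of flavonoid and anthocyanin synthesis 7 of 9 genes were higher in flowers, among them BAN, counted above with the seed coat genes. The list also holds UGT84A1 and UGT84A3, whose part in flavonoid synthesis was not tested. CHIL, a chalcone isomerase-like protein, changed by 4.42, UGT84A1 by 2.55 and UGT78D1, a flavonol rhamnosyltransferase, by 1.83. DFR, dihydroflavonol reductase, gave 605, 518 and 293 in flowers and 88.6, 157 and 223 in leaves (log2 change 1.57). UF3GT gave 343, 278 and 142 against 70.6, 146 and 135 (1.04), so that its groups overlapped, and the call was lost without some arrays (adjusted p up to 0.0585). Flower array 3 was the lowest flower sample for 9 of these 9 genes, and leaf array 1 the lowest leaf sample for 8. UGT84A3 was lower in flowers (-1.37).

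Division and chromosome genes were higher in flowers in 15 of 16 cases and lower in none, with a median change of 1.31. After quantile normalization 10 were higher. TOPII, topoisomerase II, gave 88.6, 117 and 133 in flowers and 0.963, 1.22 and 1.60 in leaves (log2 change 3.69). The mitotic Aurora kinases AUR2 (2.73), AUR1 (2.01) and AUR3 (1.41), the spindle checkpoint protein BUBR1 (1.46), the helicase subunit PRL (1.90) and ICU2, the catalytic subunit of DNA polymerase alpha (1.21), were all higher. cdc2cAt (2.80) and SIM (1.72), an inhibitor of mitotic kinases, were higher too. POLH, a polymerase for damaged DNA, was the exception (0.26). Of 6 histone genes the H2B genes HTB1 (2.45), HTB2 (2.07) and HTB4 (1.26) were higher, and the linker histone HIS1-3 was lower (-1.66), with 51.5, 43.4 and 20.3 in flowers and 64.9, 126 and 272 in leaves.

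The cytoskeleton followed the same direction. All 7 tubulin genes tested were higher in flowers, with a median of 1.68. TUB1 gave 195, 186 and 173 in flowers and 2.24, 10.7 and 16.1 in leaves (3.53), TUB7 changed by 3.42, TUA6 by 1.85 and TUB9 by 1.24, while TUA1 had the smallest change (0.46) and lost its call without some arrays (adjusted p up to 0.0958). KINESIN-12B, a motor of the division plane, changed by 1.86. Of 7 actin and actin-binding LIM genes 6 were higher, led by PLIM2a and by ACT11 (3.35) and ACT12 (1.95), actins known from reproductive organs, and WLIM2a (2.11). Of 7 NET actin-binding proteins 4 were higher, NET2D (2.25) and NET1A (2.18) most. Of 14 IQD proteins, which link calmodulin to microtubules, 11 were higher, among them iqd33 (2.52), IQD26 (2.48), IQD30 (1.97) and IQD31 (1.89). IQD27 (-1.32) and IQD24 (-1.08) were lower.

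Most of the cell wall families ran towards flowers in their named members, although of 3 pectin methylesterase genes 1 was higher and 1 lower. Of 11 endoglucanases of glycosyl hydrolase family 9, 10 were higher, none lower, and GH9B12 was not called (0.36). GH9C2 gave 628, 653 and 518 in flowers and 30.5, 52.8 and 22.1 in leaves (log2 change 3.87), GH9B7 changed by 1.98 and GH9B5 by 1.68. Of 15 expansins, proteins that loosen walls, 9 were higher, among them EXPB3 (3.65), EXLA1 (3.21), EXLA2 (3.08) and EXPA15 (2.79). EXLB1 (-2.26) and EXPA16 (-0.93) were lower. Of 6 xyloglucan endotransglucosylases 5 were higher, XTH16 (3.33), XTH19 (2.92), XTH33 (1.91) and XTH32 (1.26) most. Of 18 TRICHOME BIREFRINGENCE-LIKE genes, wall acetyltransferases, 9 were higher and none lower, with TBL39 (4.04), TBL45 (3.00), TBL36 (2.96) and TBL26 (1.56) ahead. Of 8 cellulose synthase-like genes 5 were higher, CSLA01 (2.18) and CSLC12 (1.72) most, and none was lower.

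Secreted proteases and peptides had strong members on the flower side and some on the leaf side. Of 25 serine carboxypeptidase-like genes, 16 were higher and 3 lower. scpl41 gave 108, 96.8 and 85.3 in flowers and 2.46, 0.988 and 4.22 in leaves (3.32), scpl25 changed by 3.03, scpl35 by 2.19 and SCPL43 by 2.09, while scpl46 was lower (-1.84). Of 8 subtilases 4 were higher, SBT4.13, SBT1.3 (4.31), SBTI1.1 (3.09) and SBT5.4 (1.60), and 2 were lower, SBT3.5 (-1.41) and SBT3.3 (-1.28). Of 5 CLE signalling peptides 1 was higher, CLE27 (1.12), and 2 were lower, CLE21 (-1.45) and CLE44 (-0.65). Of 10 RALF-like peptides, 9 were higher and only RALFL33 was lower (-0.62). Those higher included RALFL26 (3.90), RALFL34 (2.54) and RALFL28 (2.24) beside RALFL25. Among small cysteine-rich peptides LCR69 (3.93), LCR72 (2.99), LCR24 (2.95) and LCR66 (2.11) were higher, and the jasmonate- and ethylene-induced defensin PDF1.2b was lower (-2.71), with leaf signals of 273, 31.6 and 107. Its near copy PDF1.2 was also lower (-1.57), with overlapping groups and a call lost without some arrays (adjusted p up to 0.0614), and probes may not separate the copies.

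SWEET sugar transporters included strong members on both sides. Of 14 tested, 10 were higher in flowers and only SWEET11 was lower. SWEET9, the sucrose exporter of nectaries, gave 840, 830 and 713 in flowers and 24.4, 12.3 and 13.7 in leaves (log2 change 5.04). SWEET4 changed by 3.65 and SWEET10 by 3.31. SWEET11, which exports sucrose towards the phloem in leaves, gave 415, 385 and 369 against 2588, 2532 and 2386 (-2.66). Other sugar genes on the leaf side were ATSPS4F, a sucrose phosphate synthase (-3.37), and cwINV6, a fructan exohydrolase (-2.52).

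Hormone genes showed single strong members. GH3.17, which conjugates auxin to amino acids, gave 281, 221 and 144 in flowers and 1.76, 1.06 and 3.14 in leaves (log2 change 4.44). GH3.3 of the same family changed by 2.52, the auxin synthesis gene YUC6 by 1.99 and IAA31 by 1.75, among 7 higher and 1 lower of 13 auxin genes. Of 7 jasmonate genes 2 were higher and 3 lower, with a median of -0.14. JMT, which makes methyl jasmonate, gave 465, 458 and 364 against 15.6, 14.2 and 18.8 (4.17), while OPCL1, a ligase of jasmonate synthesis, was lower (-1.61). RR22, a response regulator, changed by 2.96, with 76.6, 66.7 and 52.1 against 1.26, 1.28 and 1.36. Of 6 cold, drought and seed protection genes 2 were higher, COR15A (2.62), a cold-induced chloroplast protein, and COR15B (0.90), and 2 were lower, STZ and LTI30 (-0.94), a dehydrin. The calls of COR15B and LTI30 were lost without some arrays (adjusted p up to 0.176).

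Several families held members on both sides. Of 10 autophagy genes, ATG8H was higher (298, 278 and 185 in flowers, 58.6, 53.1 and 63.1 in leaves, change 1.96), while APG8H (-1.44), ATG8F (-1.23) and ATG8C (-0.69) were lower. Of 9 vacuolar sorting genes, VPS2.2 was higher (3.12), with 71.6, 71.2 and 97.7 against 2.89, 1.93 and 1.46, and 6 were lower by less, such as VPS60.2 (-0.70), VPS46.2 (-0.69) and VPS2.1 (-0.53). Of these 6, 4 lost the call without at least 1 array. Among 11 ubiquitin-conjugating enzymes UBC20 was higher (160, 168 and 172 in flowers, 35.2, 21.6 and 35.2 in leaves), as were UBC22 (0.56) and UBC27 (0.37), and 6 were lower, among them UBC29 (-1.23), UBC16 (-0.82) and UBC28 (-0.81). NRPB9A, a small subunit of RNA polymerase II, changed by 2.57 and its relative NRPB9B by 0.01 (not called). Among 9 U-box ubiquitin ligases PUB15 was higher (1.65) and 3 were lower, PUB24 (-1.98) and PUB23 (-1.69) most. By contrast, of 7 CHR chromatin remodellers 4 were higher, chr31 most (3.30), and none was lower.

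**Figure D4:**
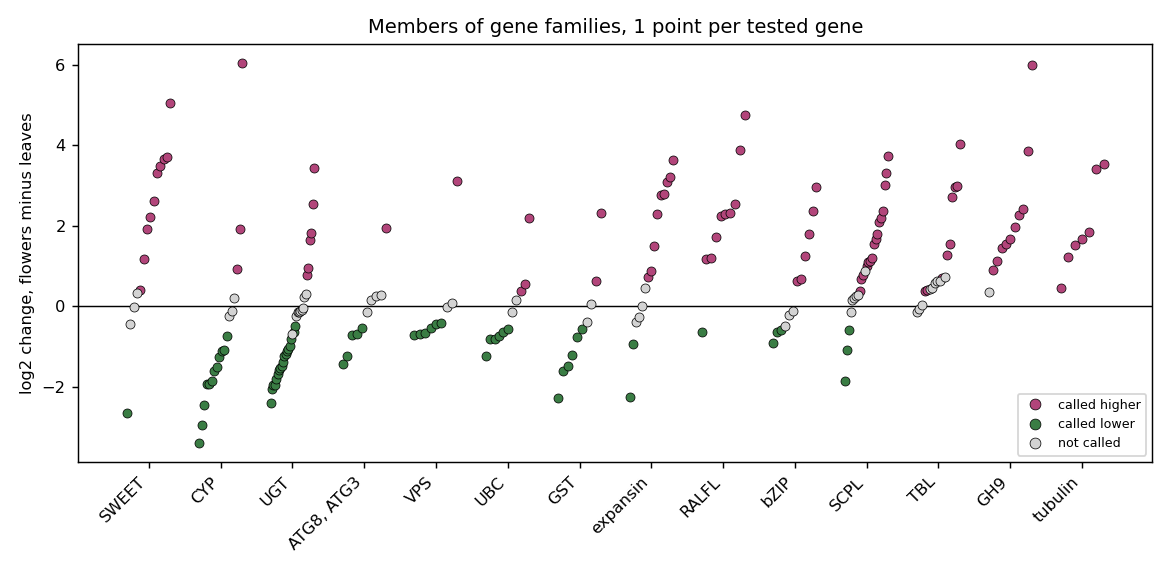
Log2 change between wild-type flowers and leaves of each tested member of 14 gene families, ordered by size within a family and coloured by call. Tubulins lie wholly above 0, whereas SWEET, CYP, VPS and ATG each hold a point far from most of the family, such as SWEET11 at -2.66 and VPS2.2 at 3.12.

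The same tissue contrast was fitted on the 6 lug-3 arrays alone, which share no sample with the 6 wild-type arrays fitted alone. In lug-3 flowers 31.4% of the probe sets passed as higher and 19.5% as lower. Of 5600 probe sets called higher in wild type in its own fit, 3780 were called higher in lug-3 (67.5% of the wild-type calls and 67.3% of the 5615 lug-3 calls). Of 4378 called lower, 2553 were called lower in lug-3 (58.3% and 73.2% of the 3488 lug-3 calls). Opposite calls were fewer, 75 and 149. In the list counts that follow, wild-type calls are from the fit of all arrays and lug-3 calls from the lug-3 arrays alone. The former fit had 8 residual degrees of freedom and the latter 4. Such counts alone therefore do not show that a list differed between the genotypes. Of the 42 nuclear and chloroplast genes of light harvesting, photosystems and the NDH complex, 37 were lower in each genotype, and of the 14 SWEET genes 10 were higher in wild type and 9 in lug-3. The counts of other lists lay further apart. Of 9 chlorophyll and carotenoid genes 2 were lower in wild type and 7 in lug-3. Of 9 flavonoid genes 7 were higher in wild type and 4 in lug-3. Of the 450 list genes called in wild type, 327 were called the same way in lug-3 and 11 the opposite way. BAN (4.88 in wild type, 0.38 in lug-3), the linker histone HIS1-3 (-1.66, 2.23), the bZIP factor BZIP61 (2.36, -1.64) and the expansin EXPA8 (2.29, -1.33) differed between the genotypes by the interaction term (adjusted p up to 0.00111), which was called for 23.0% of all tested probe sets.

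**Figure D5:**
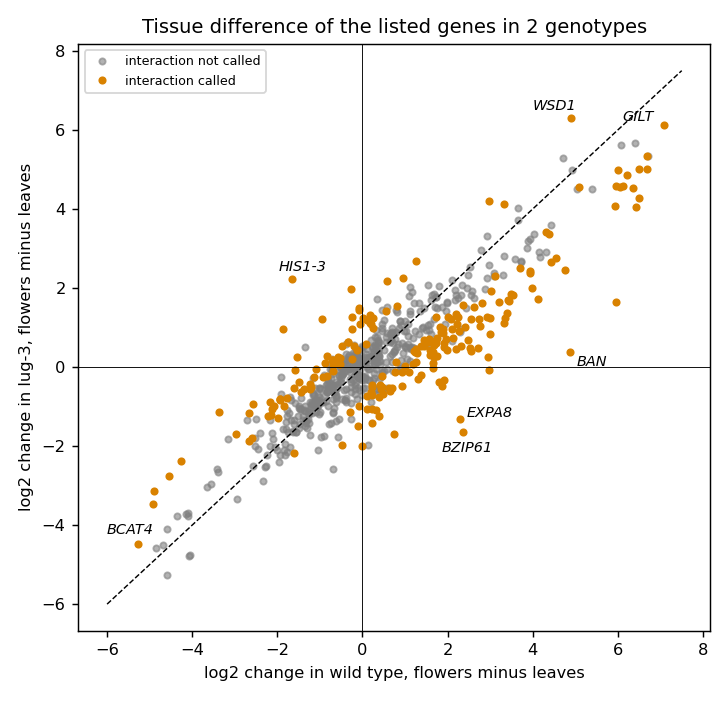
Log2 change between flowers and leaves in wild type (horizontal) and in lug-3 (vertical) of the genes named or listed here, with the line of equality dashed and genes whose difference between genotypes was called in orange. Most points follow the diagonal; BAN, BZIP61 and EXPA8 lie far below it and HIS1-3 above.

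A few strong differences lay side by side on the chromosomes. Runs of at least 3 named genes, changed by more than 4-fold in the same direction and at most 3 protein-coding positions apart, held 26 of 645 such genes higher in flowers and 10 of 263 lower. ATA27 stood in a run of 4 on chromosome 1 with AT1G75880 (4.29), AT1G75900 (2.99) and AT1G75920 (3.57). AT3G01240, AT3G01250 (5.36) and AT3G01270 (5.25) formed a run on chromosome 3. On the leaf side AT5G52740 (-2.57), AT5G52750 (-3.77), AT5G52760 (-3.19) and AT5G52780 (-2.30) formed a run of 4 on chromosome 5. Neighbours that arose by duplication can share probes, so these counts are a description.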

How the data were processed

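Transcript levels of 6 wild-type pools, 3 of flowers and 3 of leaves, were compared. The authors deposited 1 linear intensity per probe set and array. Per the submitters' processing notes, the tools were MAS5 and GCOS; no version of either is given there. The mean after trimming 2% at each end was 100.0 on every array, so no further scaling was applied. Control probe sets (64 of 22810) were left out. Intensity was transformed as log2(signal + 8), and 17877 probe sets were tested, those that passed 16.4 (the 30th percentile of all values) on 3 or more arrays. limma 3.58.1 in R 4.3.3 (lmFit, contrasts, eBayes) fitted 4 group means to all 12 arrays, and every adjusted p is from this fit unless another is named. The fit was tested on simulated data. The number of arrays limits the precision.

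Of the probe sets that are not controls, 13513 carry 1 gene in GEO's platform annotation, 503 several and 8730 none here. Of the former, 13436 matched a RefSeq gene table (TAIR10.1) for symbols and gene order. A list gene is represented by its brightest probe set. Only probe sets with 1 gene were ranked or named. Named are the 15 largest differences each way among those called with separate groups, the 5 brightest called in each tissue, and up to 4 genes of smallest p per list. Other examples, 23 added lists and 13 matches removed as wrong synonyms were chosen after values were seen. All members and lists were chosen with earlier results of these data known. Alternatives were other pseudocounts, filters, normalizations, array weights, the GAPDH ratio as covariate, a replicate block, leaving out each array and, added after the data were seen, a fit of the lug-3 arrays alone.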

Additional observations from a re-analysis of the deposited data

Results flagged for a closer look

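The difference between flowers and leaves was tested against the same difference in lug-3 by the interaction term of the limma fit, which called 23.0% of all tested probe sets. All genes below had a called interaction. The 88 genes chosen by size of change or brightness entered if their tissue difference moved by more than 2 on the log2 scale. Genes named or listed in the report also entered if their tissue difference was called in opposite directions in the genotypes. List genes outside the 88 that moved by more than 2 without opposite calls are therefore not given. Adjusted p-values of the interaction reached at most 0.025.

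The tissue difference kept its sign and changed in size for AT1G72290 (6.50 in wild type, 4.27 in lug-3, difference -2.23), AT5G38760 (6.44 in wild type, 4.06 in lug-3, difference -2.38), AT5G47350 (5.96 in wild type, 1.64 in lug-3, difference -4.32) and BAN (4.88 in wild type, 0.38 in lug-3, difference -4.50). It did so also for RALFL25 (4.76 in wild type, 2.47 in lug-3, difference -2.29), AT59 (4.12 in wild type, 1.73 in lug-3, difference -2.40) and ATSPS4F (-3.37 in wild type, -1.14 in lug-3, difference 2.23). Among these, the first values are the log2 changes from leaves to flowers and the last is lug-3 minus wild type.

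The sign turned between the genotypes for the genes higher in wild-type flowers BZIP61 (2.36 in wild type, -1.64 in lug-3, difference -4.004), SWEET2 (0.41 in wild type, -0.46 in lug-3, difference -0.87), EXPA8 (2.29 in wild type, -1.33 in lug-3, difference -3.61) and rpl14 (0.93 in wild type, -0.49 in lug-3, difference -1.42). It turned likewise for rpoB (0.70 in wild type, -0.52 in lug-3, difference -1.22), iqd21 (0.46 in wild type, -0.50 in lug-3, difference -0.96) and BGLU25 (0.43 in wild type, -0.55 in lug-3, difference -0.98). Genes lower in wild-type flowers and higher in lug-3 flowers were HIS1-3 (-1.66 in wild type, 2.23 in lug-3, difference 3.89), LTI30 (-0.94 in wild type, 1.22 in lug-3, difference 2.16), CYP71B26 (-1.86 in wild type, 0.96 in lug-3, difference 2.82) and UGT76D1 (-0.48 in wild type, 0.54 in lug-3, difference 1.02). The cause of these differences was not tested.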

How the results depend on the processing

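The total of 10582 calls lay between 9489 and 10341 when each of the 6 arrays was left out, and between 9978 and 11108 under the other alternatives. Calls higher in flowers ranged from 4759 (median centring) to 6104 (no filter) and calls lower from 4378 (the 6 wild-type arrays alone) to 6192 (median centring), outside the leave-one-out fits. With the pseudocount 32, changes over 4-fold fell to 577 higher and 293 lower. In lug-3 flowers, 5672 higher calls in the joint fit became 3674 after median centring. Of 1496 values of the 88 genes chosen by size of change or brightness under an alternative, 1491 kept the call and direction. The exceptions all came with quantile normalization: atpE turned to 0.15 (adjusted p = 0.209) and atpA to 0.0039 (adjusted p = 0.982), and atpB, psbM and petB lost the call. The cause was not tested. Single arrays decided 61 of the 450 calls of list genes. Flower and leaf arrays of the same replicate number correlated at 0.082, -0.014 and -0.014 in their deviations from the group means. Arrays of unlike number correlated at -0.11 to 0.109. Whether the replicate numbers pair the samples cannot be told from these values. With the replicate block 10593 probe sets were called, 5903 higher and 4690 lower. Signals below the filter limit the folds of dim genes.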
